A study of Mus musculus with 32 samples.

Results

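The 9 genes described here encode parts of the tight junction, and their HNF4A sites were taken from peak lists of jejunal intestinal epithelial cells (IECs). They are Cldn2, Cldn3, Cldn4, Cldn7, Cldn15, Ocln, F11r, Tjp1 and Cgn. HNF4A chromatin immunoprecipitation and sequencing (ChIP-seq), which pulls down DNA with an antibody to the bound protein and locates it as peaks, gave 1 peak list per mouse. Peaks of all 8 lists that shared at least 1 bp were merged into 45552 sites, and the sites in the body of a member gene or within 20 kb of either end were kept. This left 72 sites for the 9 genes, 1 of which lies in the windows of both Cldn3 and Cldn4. A site counts as called in a library if at least 1 of its peaks falls there.

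The mice were male C57BL/6J animals of 10 to 12 weeks, all given an egg yolk emulsion by gavage as a high-fat meal (HFM) and sampled 2 hours later. In 4 of them, the GF+HFM group, no microbes were present, and the other 4, the CV+HFM group, were born germ-free and had been colonized with a conventional microbiota for 14 days. Comparing the groups asks how microbes bear on HNF4A binding during a meal. The IEC preparations held most of the villus epithelium with some crypts and mesenchyme, so a call is an average over these cells. The lists give positions only, with no expression, so the labelled cell type was not checked against markers. Fewer cells of a type and less binding per cell cannot be told apart in such samples.

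Tight junctions close the gap between neighbouring epithelial cells near their apical side. Claudins are the transmembrane proteins that line this gap and set which ions may pass, occludin and junctional adhesion molecules accompany them in the membrane, and the zonula occludens proteins and cingulin tie the strands to actin and myosin inside the cell. HNF4A is a nuclear receptor that binds DNA as a homodimer and is known for its part in the differentiation of enterocytes, the absorptive cells that carry these junctions.

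The bases common to the widest peak of every library that called a site are shown, because on these stretches those peaks coincide. They are given for the member sites that overlap an annotated gene start or were called in all 8 libraries. The 10 widest of them by rank in GF+HFM are given on the plus strand of mm9, 5′ to 3′. Capitals mark matches on either strand, within those bases, to the HNF4 motif CAAAGTCCA with at most 1 mismatch. A direct repeat of 2 copies of AGGTCA with 1 base between them (DR1), searched with at most 2 mismatches, had no whole match in these 10.
Cldn15, 5′ of the gene, chr5:137441705-137441946: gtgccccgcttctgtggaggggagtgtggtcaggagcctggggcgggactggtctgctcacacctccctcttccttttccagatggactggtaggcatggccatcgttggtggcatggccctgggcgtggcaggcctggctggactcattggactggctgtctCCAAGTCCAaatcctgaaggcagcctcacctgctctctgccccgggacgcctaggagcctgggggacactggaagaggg
F11r, over the start, chr1:173367838-173367889: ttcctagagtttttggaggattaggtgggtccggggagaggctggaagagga
F11r, upstream, chr1:173365743-173365876: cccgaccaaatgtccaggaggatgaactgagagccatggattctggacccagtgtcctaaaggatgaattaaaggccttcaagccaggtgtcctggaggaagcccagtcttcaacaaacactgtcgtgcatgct
Ocln, intron 4, chr13:101291944-101292013: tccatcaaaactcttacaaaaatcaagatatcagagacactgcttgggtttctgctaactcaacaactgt
Cldn15, intron 2, chr5:137446560-137446772: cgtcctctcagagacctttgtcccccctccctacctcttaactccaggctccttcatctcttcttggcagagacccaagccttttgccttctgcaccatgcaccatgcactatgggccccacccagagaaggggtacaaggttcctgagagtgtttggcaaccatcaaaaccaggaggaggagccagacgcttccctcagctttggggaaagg
Cldn3, upstream, chr5:135457026-135457225: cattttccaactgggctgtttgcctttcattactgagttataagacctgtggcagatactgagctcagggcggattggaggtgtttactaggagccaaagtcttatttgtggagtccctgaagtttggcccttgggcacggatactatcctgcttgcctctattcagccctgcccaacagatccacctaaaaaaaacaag
Cldn7, over the start, chr11:69778649-69778823: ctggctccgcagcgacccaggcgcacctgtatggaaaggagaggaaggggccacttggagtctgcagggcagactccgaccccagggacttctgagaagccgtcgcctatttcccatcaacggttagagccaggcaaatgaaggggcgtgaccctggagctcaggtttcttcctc
Cldn3, downstream, chr5:135478237-135478304: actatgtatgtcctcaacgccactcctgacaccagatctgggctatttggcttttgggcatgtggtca
Cgn, upstream, chr3:94591461-94591608: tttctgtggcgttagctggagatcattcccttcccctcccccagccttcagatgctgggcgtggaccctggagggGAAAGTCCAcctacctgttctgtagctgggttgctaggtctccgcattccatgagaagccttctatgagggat
Cldn4, downstream, chr5:135408522-135408608: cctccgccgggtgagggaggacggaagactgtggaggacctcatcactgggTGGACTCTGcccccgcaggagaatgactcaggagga

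Of these 10 stretches, 3 held a match, namely those at Cldn15, Cgn and Cldn4. An eleventh sequence, chosen after the matches were seen, is the stretch in intron 1 of F11r that held the one exact copy of the motif among the 72 sites.
F11r, intron 1, chr1:173371587-173371836: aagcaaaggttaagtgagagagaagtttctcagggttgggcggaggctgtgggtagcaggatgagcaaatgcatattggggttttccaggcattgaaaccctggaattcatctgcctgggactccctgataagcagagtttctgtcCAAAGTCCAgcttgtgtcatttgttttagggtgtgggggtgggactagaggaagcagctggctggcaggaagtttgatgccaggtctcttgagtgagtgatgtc

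HNF4A sites were found at all 9 genes. Numbered in order of genome position within each gene's window, there were 2 sites at Cldn2, 9 at Cldn15, 10 at Cldn3, 5 at Cldn4, 9 at Cldn7, 9 at Ocln, 11 at F11r, 6 at Tjp1 and 12 at Cgn. The median of the 9 genes was 9 sites, against 2 over the 22380 protein-coding genes of the annotation. Of protein-coding genes, 5.44% had at least as many sites as Cldn3 and 4.02% at least as many as F11r, whereas 50.2% had at least as many as Cldn2. Because long windows hold more sites, the counts were also set per 10 kb of window. Cldn3 then stood at 2.42 sites per 10 kb, a density that 0.420% of protein-coding genes reached, Cldn7 at 2.09 (1.07% of genes) and Cldn15 at 1.83 (2.08% of genes). Within 10 kb of either end instead, Cldn3 had 5 sites and Cldn7 and Cldn15 had 7 each, so which of these genes stands first depends on the window. With each site given to its nearest annotated gene at any distance, Cldn3 had 8 sites, Cldn7 3, Cldn15 2 and Tjp1 14. Cgn had 0.723 per 10 kb (20.1% of genes) and Cldn2 had 0.396 (37.2% of genes). Without 5 sites that have near-identical copies elsewhere in the genome, the 12 of Cgn were 7.

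**Figure D1:**
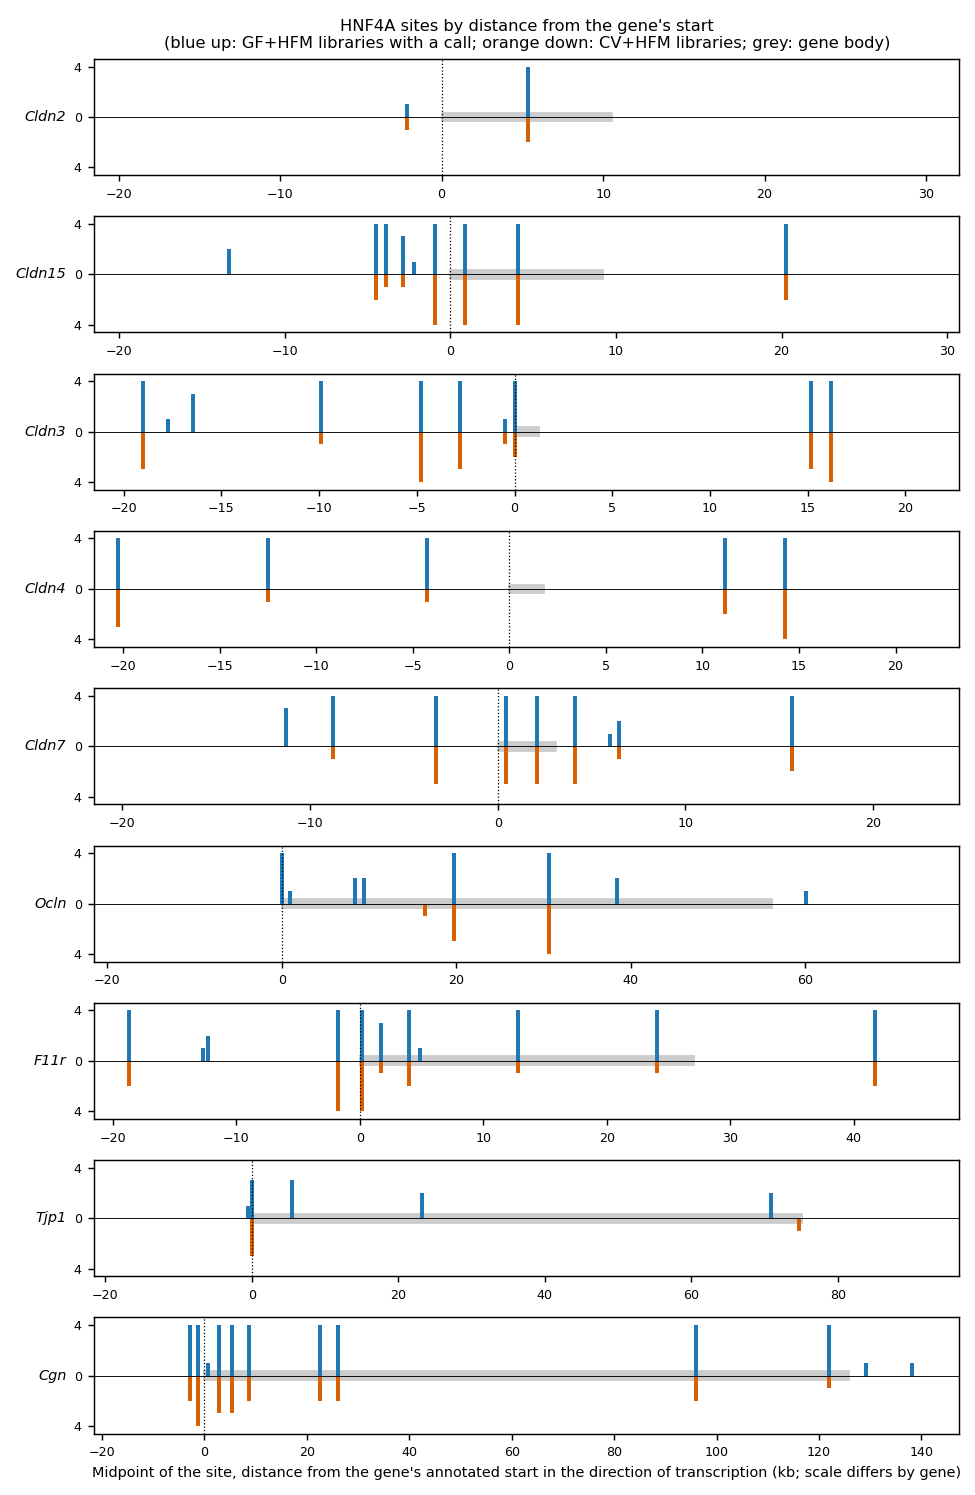
Position of the merged HNF4A sites at each of the 9 genes, as distance in kb of the site's midpoint from the annotated gene start in the direction of transcription (horizontal axis, with a scale of its own for each gene). Blue bars upward give the number of GF+HFM libraries, of 4, with a call, orange bars downward the number of CV+HFM libraries, and the grey band is the gene body; Cldn4 has no site in its body, and the Ocln start has blue calls only.

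The 72 sites ran from 162 to 1702 bp. By midpoint, 26 lay upstream of the member gene, 27 in an intron, 6 in an exon and 13 downstream. At 52 sites the nearest protein-coding gene start was that of a member, and at the other 20 it was another gene's, so that a site in a window need not belong to the member. The site overlapped a further annotated gene at 23 of the 72. Sites within 1 kb of a member's own annotated start numbered 12, and 5 of these overlapped the start itself. They belonged to 7 of the 9 genes (77.8%), all but Cldn2 and Cldn4, whereas 28.5% of protein-coding genes had such a site.

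Cldn15 and Cldn2, the claudins that form pores for small cations, differed from each other. Cldn15, the pore-forming claudin of the villus that lets sodium return to the lumen for nutrient uptake, had 3 sites called in all 8 libraries, more than any other member. The widest of them, chr5:137440758-137442340, ends 146 bp before the Cldn15 start and overlaps the neighbouring gene Fis1, which encodes a mitochondrial fission protein. Its widest peak measured 1255, 630, 1408 and 1425 bp in GF+HFM replicates 1 to 4 and 1220, 314, 534 and 295 bp in CV+HFM replicates 1 to 4. Because the lists differ in peak width as a whole, the width was also ranked within each list, as the percentile among that library's own peaks. On this scale the site stood at 99.5, 93.9, 99.2 and 98.3 in GF+HFM and at 99.7, 90.7, 92.9 and 91.5 in CV+HFM, so it stood at or above 90.7 in every library. The other 2 sites lay in introns 1 and 2.

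At the intron 1 site of Cldn15, chr5:137442813-137443989, the width percentiles were 78.4, 99.6, 77.2 and 96.1 in GF+HFM and 87.0, 64.6, 78.8 and 69.9 in CV+HFM. Some of its libraries had several peaks there, and no base was common to the widest peaks of all the libraries. This site overlaps the start of a shorter Cldn15 transcript. At the intron 2 site, chr5:137446226-137446954, the percentiles were 93.1, 89.5, 60.6 and 80.5 in GF+HFM and 90.4, 84.7, 89.2 and 81.5 in CV+HFM. The groups overlapped at both. A further 5 narrower sites upstream, all overlapping Fis1, each had 1 to 4 calls in GF+HFM and at most 2 in CV+HFM.

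Cldn2, the claudin of the crypt that passes cations and water, had the fewest sites. No peak came within 1 kb of its annotated start. The site in its intron 1, chrX:136340455-136340928, overlaps the start of a short Cldn2 transcript at 136340620 and had a peak in 4 germ-free and 2 colonized mice (Fisher's exact test, two-sided, p = 0.429). Its width percentiles were 75.4, 68.3, 47.4 and 34.4 in GF+HFM and 65.5 and 42.9 in CV+HFM replicates 1 and 3, while replicates 2 and 4 had no call. It was thus a peak of middling width where it was called. The other site, 1993 bp upstream of the gene, was called in GF+HFM replicate 3 and CV+HFM replicate 1.

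Cldn3 and Cldn4, neighbouring genes that encode claudins known to seal the paracellular gap, had 14 sites between them. They share the widest site of each, chr5:135442263-135443875, which lies 18209 bp upstream of Cldn3 and 19459 bp upstream of Cldn4. Its percentiles were 91.5, 83.5, 98.9 and 98.0 in GF+HFM and 93.4, 82.7 and 60.5 in CV+HFM replicates 1, 3 and 4, with no call in replicate 2. At Cldn3, 2 other sites were called in all 8 libraries. The one 4453 bp upstream, chr5:135456938-135457631, stood within each whole list at 79.6, 80.7, 76.8 and 77.8 in GF+HFM and 78.0, 80.5, 82.0 and 79.5 in CV+HFM. Among the 3445 sites called in all 8 libraries its rank was less even, at 27.1, 34.5, 26.6 and 27.1 percent in GF+HFM and 28.6, 61.6, 46.5 and 73.5 percent in CV+HFM. Over the Cldn3 start itself, the site at chr5:135461881-135462342 was narrower, at 60.5, 46.4, 31.4 and 44.5 in GF+HFM and 48.5 and 23.1 in CV+HFM replicates 1 and 3. A narrower site next to it, chr5:135461445-135461742, was called in 1 library of each group, at 26.4 in GF+HFM replicate 3 and 1.53 in CV+HFM replicate 1.

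The downstream site of Cldn3 called in all 8 libraries, chr5:135477887-135478634, lies nearer to the start of Abhd11 than to that of Cldn3. It stood at 64.3, 86.4, 66.4 and 81.9 in GF+HFM and at 60.4, 69.3, 70.3 and 49.5 in CV+HFM. Cldn4 had no site in its body and none within 1 kb of its start, and the nearest, 3969 bp upstream, had calls in all GF+HFM libraries and CV+HFM replicate 1. All 5 sites in the Cldn4 window were called in all 4 GF+HFM libraries, as were 59.7% of member sites and 50.6% of all sites. The one called in all 8, chr5:135408246-135408769, lies downstream of Cldn4, 8 bp from the start of Wbscr27 and inside the window of Cldn13 as well. Its percentiles were 70.1, 83.6, 60.9 and 46.4 in GF+HFM and 70.8, 88.5, 74.1 and 40.3 in CV+HFM, and the groups overlapped.

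Cldn7, a claudin found along the lateral membrane as well as in the junction, had 9 sites and none called in all 8 libraries. Each of the 9 had more calls in GF+HFM than in CV+HFM, as 86.5% of all sites had, and at equal list length sites 4 and 5 had equal numbers. The widest peak at any of the 9 genes by mean rank in GF+HFM was its upstream site, chr11:69774303-69775720, 2561 bp before the start. This site measured 1317, 874, 1394 and 1374 bp in GF+HFM and 808, 310 and 118 bp in CV+HFM replicates 1, 3 and 4. On the percentile scale it stood at 99.6, 98.7, 99.1 and 98.0 in GF+HFM and at 97.3, 61.1 and 57.3 in those CV+HFM replicates, with no call in replicate 2. Every GF+HFM value was above every CV+HFM value in length (exact permutation test of covered length, two-sided, p = 0.0286, adjusted p = 0.152). Because the site was picked for its width in GF+HFM, that order was favoured in advance. It was found for covered length at 18.8% of all sites.

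Over the Cldn7 start, the site at chr11:69778210-69779202 had calls in all 4 GF+HFM libraries and 3 of CV+HFM. Its percentiles were 89.4, 66.1, 73.9 and 75.5 in GF+HFM and 98.4, 43.8 and 75.0 in CV+HFM replicates 1 to 3. The highest value of this site was thus that of a colonized mouse.

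Ocln, which encodes occludin, had 9 sites, 8 of them over its 56212 bp and 1 downstream in Gtf2h2, and the only site of the 72 called in every GF+HFM and no CV+HFM library. This site, chr13:101322188-101323106, overlaps the Ocln start. Its widest peak measured 917 bp in GF+HFM replicate 1 and 230, 267 and 288 bp in replicates 2 to 4, at percentiles of 97.7, 27, 19.2 and 17.1. The peak was thus wide in 1 germ-free mouse and narrow in the other 3, and the 4 shared only 36 bp. Fisher's exact test gave p = 0.0286, two-sided, the smallest that 4 libraries against 4 allow, and an adjusted p of 0.824 over all sites. With peaks of at least 300 bp only, with lists of equal length or with at least 50% of the site to be covered, the call remained in 1 GF+HFM library (Fisher's exact test, p = 1.00). Of all 45552 sites, 2.79% had 4 GF+HFM calls and 0 from CV+HFM, against 1.39% of the member sites.

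A second site near the Ocln start, chr13:101321550-101321881, was called in GF+HFM replicate 1 alone, at percentile 54.5. The Ocln site called in all 8 libraries lay in intron 4, chr13:101291696-101292453. Its percentiles were 83.9, 77.9, 88.8 and 73.2 in GF+HFM and 89.4, 7.61, 83.9 and 27.3 in CV+HFM, so it ranked low in CV+HFM replicates 2 and 4, the shortest lists. A further site in intron 4, chr13:101302447-101303293, was the widest of the gene by mean rank in GF+HFM, at 76.3, 84.8, 86.5 and 86.7, and it stood at 83.8, 88.1 and 82.7 in CV+HFM replicates 1 to 3.

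F11r encodes the junctional adhesion molecule JAM-A and had 11 sites. Its start was covered by a site called in all 8 libraries, chr1:173367392-173368289, the single site of the 72 that both overlapped the outermost annotated start of a member gene and was called throughout. The widest peak there measured 867, 557, 700 and 687 bp in GF+HFM and 753, 288, 554 and 79 bp in CV+HFM. The percentiles were 97.1, 90.5, 85.5 and 77.3 in GF+HFM and 96.3, 86.4, 93.9 and 34.3 in CV+HFM, where replicate 4 stood apart. The second site called in all 8 libraries, chr1:173365427-173366456, lies 1210 bp upstream of the start. Its values were 81.7, 84.4, 79.1 and 93.6 in GF+HFM and 81.2, 88.0, 73.6 and 63.8 in CV+HFM. The intron 1 site with the exact motif, chr1:173371414-173371936, had 4 calls in GF+HFM and 2 in CV+HFM, at percentiles of 46.4 to 65.7.

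Tjp1 encodes ZO-1, the scaffold of the junctional plaque, and was the one member with no site called in all 4 GF+HFM libraries. The site over its start, chr7:72515763-72516361, had 3 calls in each group and was missing in GF+HFM replicate 3 and CV+HFM replicate 4. Its percentiles were 87.2, 64.1 and 26.7 in GF+HFM replicates 1, 2 and 4 and 57.0, 29.7 and 77.2 in CV+HFM replicates 1 to 3, so the groups overlapped widely. A split of 3 and 3 was rare, at 50 of all sites or 0.110%. A second site near the start, chr7:72516544-72516793, was called in GF+HFM replicate 1 alone at percentile 32.0. The 4 remaining sites of this gene were called in at most 3 libraries. One of them, in the last exon, was called in CV+HFM replicate 1 alone and held the closest DR1 match of the gene, AGGTCAAAGTTCA with 1 mismatch.

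Cgn, which encodes cingulin, the link from the plaque to actomyosin, had 12 sites. The site called in all 8 libraries, chr3:94591277-94591928, ends 863 bp before the start. Its percentiles were 67.7, 56.0, 70.5 and 68.2 in GF+HFM and 71.0, 53.9, 78.0 and 68.0 in CV+HFM. The widest, in intron 1 at chr3:94586812-94588513, measured 1000, 907, 987 and 1545 bp in GF+HFM and 1031, 239 and 525 bp in CV+HFM replicates 1 to 3. Its percentiles were 98.4, 98.9, 95.7 and 98.9 in GF+HFM and 99.1, 74.2 and 92.5 in CV+HFM, with no call in replicate 4. Another intron 1 site within 1 kb of the start, chr3:94589556-94589775, was called in GF+HFM replicate 1 alone at percentile 22.9.

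The Cgn window holds duplicated sequence. The annotated gene spans 125908 bp because 1 of its 5 transcripts reaches 125873 bp, past a partial copy of the gene, while the transcript with the most exons spans 26424 bp. Each of the 72 sites was aligned to mm9. A match elsewhere, over at least 100 bp at an identity of at least 95%, was found for 5, all at Cgn. Repeats that were shorter, less alike or present in very many copies could be missed, so the other sites are not shown to be unique. Site 3, chr3:94468116-94468900, and site 6, chr3:94567497-94568386, are copies of each other at 98.6% identity over 819 bp. Their shared stretches show this, with a CAAAGTCCT match to the HNF4 motif in capitals in both.
Cgn, site 3, chr3:94468601-94468749: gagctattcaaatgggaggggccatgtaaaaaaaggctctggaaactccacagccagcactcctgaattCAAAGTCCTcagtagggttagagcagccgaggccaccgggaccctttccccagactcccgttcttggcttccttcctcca
Cgn, site 6, chr3:94568120-94568275: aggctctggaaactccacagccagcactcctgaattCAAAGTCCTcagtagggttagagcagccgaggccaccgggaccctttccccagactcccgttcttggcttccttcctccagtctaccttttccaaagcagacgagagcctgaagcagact

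Reads from such copies cannot be told apart where they do not differ, so calls at these 5 sites are uncertain as to place. Both had a peak in all 4 GF+HFM libraries, and beyond these site 3 had one in CV+HFM replicate 1 and site 6 in CV+HFM replicates 1 and 3. Site 4, 2599 bp from the start of Selenbp2, matched a place on the same chromosome at 97.1% identity where a peak was called in 2 GF+HFM libraries. The copies of sites 1 and 5 had no peak.

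**Figure D2:**
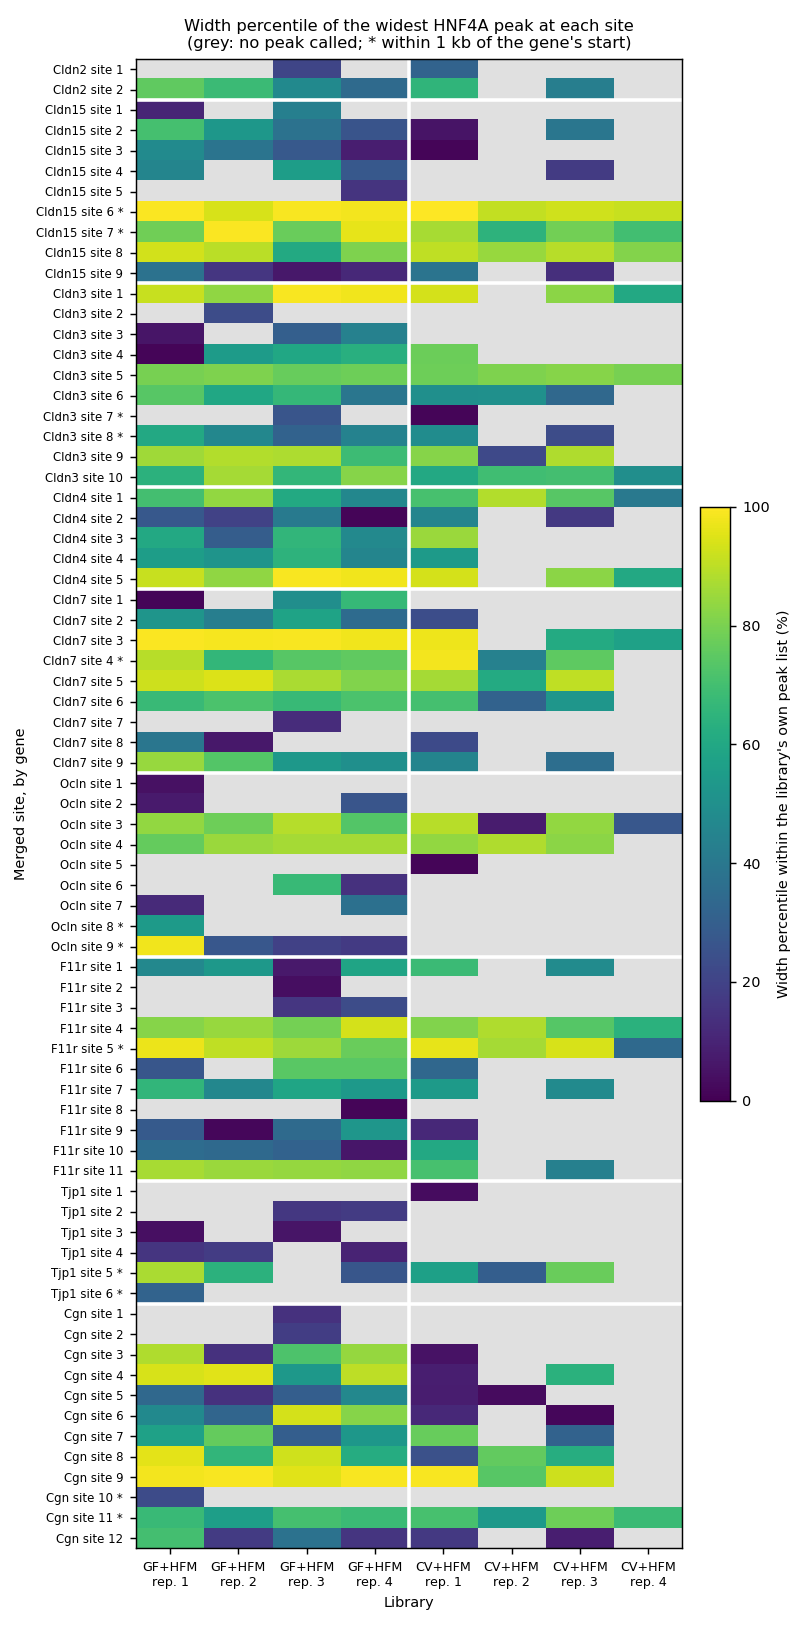
Width percentile of the widest peak at each site (rows, grouped by gene) in each of the 8 libraries (columns), from 0 (dark) to 100 (yellow) among the peaks of the same library, with grey where no peak was called and an asterisk for sites within 1 kb of the gene start. The site shared by Cldn3 and Cldn4 appears in both; grey is most frequent in CV+HFM replicates 2 and 4, and Cldn15 site 6 is yellow in all 8 columns.

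Across the 72 sites, most CV+HFM libraries called fewer sites than the GF+HFM libraries, and their peak lists were shorter. GF+HFM libraries held 31061 to 36846 peaks and called 47 to 58 of the sites, whereas CV+HFM libraries held 4533 to 29345 peaks and called 12 to 49. As shares, GF+HFM replicates 1 to 4 called 80.6%, 65.3%, 80.6% and 77.8% of the member sites, a mean of 76.0% ± 7.29 (SD, n = 4). The CV+HFM replicates called 68.1%, 27.8%, 48.6% and 16.7%, a mean of 40.3% ± 22.8 (SD, n = 4), and replicate 1 lay above the lowest GF+HFM library. Over all sites the means were 71.6% ± 5.41 (SD, n = 4) and 33.1% ± 23.4 (SD, n = 4). The share was higher for the member sites than for all sites in each of the 8 libraries, by the least in GF+HFM replicate 2, at 65.3% against 64.0%.

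**Figure D3:**
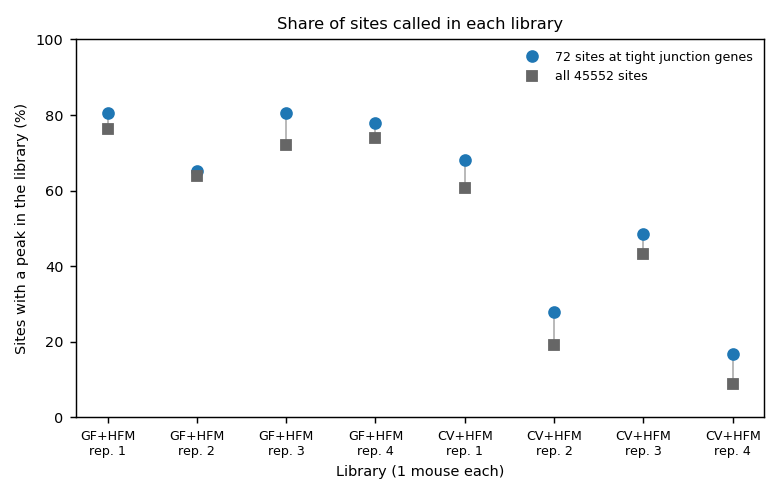
Share of sites, in percent, with a peak in each library for the 72 sites at tight junction genes (blue circles) and for all 45552 merged sites (grey squares), with no error bars because each point is 1 library. Blue lies above grey in every library, and both fall to their lowest in CV+HFM replicate 4, at 16.7% and 8.97%.

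Calls from GF+HFM outnumbered those from CV+HFM at 57 of the 72 sites (79.2%), 13 were called in equal numbers and 2 in more CV+HFM libraries, those being 1 site each of Ocln and Tjp1 called in CV+HFM replicate 1 only. Over all sites this was so at 86.5%. No member site passed Fisher's exact test after adjustment, as was so for all 45552 sites, and 1 member site and 1269 sites in all had an unadjusted p below 0.05. When each list was cut to its 4533 widest peaks, the length of the shortest list, 23 member sites remained, and 8 of them were called in more GF+HFM libraries and 11 in more CV+HFM libraries, against 40.3% and 38.6% of all sites. Lists cut to equal length call similar numbers of sites by construction, here 4108 to 4526 of all sites per library. A near balance over all sites was thus set in advance, and this setting cannot test the direction of the difference in calls. With peaks of at least 300 bp only, 51 of the 53 member sites left had more calls in GF+HFM and 0 in CV+HFM, against 96.6% and 0.924% of all sites. At equal length each library called 7 to 13 member sites, and Cldn15 site 6 was called in all 8. The lists also differ in their narrowest peak, 157 to 223 bp in GF+HFM and 52 to 171 bp in CV+HFM, and the part of read depth in the calls was not tested.

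The covered length of a site, meaning the bases that lie under peaks of a given library, was higher in every GF+HFM than in every CV+HFM library at 18 of the 72 sites (25.0%), against 18.8% of all sites, and at no site was it the reverse. These were 5 sites at Cgn, 4 at Cldn7, 3 at Cldn3, 2 at Cldn15, 2 at F11r and 1 each at Cldn4 and Ocln. Of those at Cgn, all but site 8 are among the duplicated sites. The reverse needs a peak in CV+HFM replicate 4, which held 4533 peaks of median 103 bp, so it could seldom occur. At all 18 the exact permutation test gave p = 0.0286, two-sided, the smallest that 4 against 4 allows, with an adjusted p of 0.152. None of the 45552 sites passed after adjustment, and 8581 had an unadjusted p below 0.05. Without CV+HFM replicate 1 the count was 38, against 43.4% of all sites, and without GF+HFM replicate 2 it was 29, against 36.9%. Without the 5 duplicated Cgn sites it was 14 of 67, and with lists of equal length it was 1 of 23, against 6.89% of all sites.

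Of the 72 sites, 10 were called in all 8 libraries (13.9%, Wilson 95% interval 7.72% to 23.7%), against 7.56% of all sites. The interval covers the counting of sites only, and sites of 1 gene share a window. Cldn15 had 3 of the 10, Cldn3 and F11r 2 each, and Cldn4, Ocln and Cgn 1 each. Among the member sites, those called in all 8 libraries were wide ones, with a median width percentile of 81.0 in GF+HFM. It was 56.2 for the 32 sites with 4 calls in GF+HFM but 1 to 3 in CV+HFM. For the 21 with 1 to 3 calls in GF+HFM but none in CV+HFM it was 18.2. The matching medians over all sites are not given here, so no trait particular to the member sites is shown. Among the 43 member sites called in all 4 GF+HFM libraries, CV+HFM replicates 1 to 4 called 97.7%, 44.2%, 76.7% and 27.9%. For all sites called in 4 GF+HFM libraries these shares were 91.6%, 37.1%, 78.0% and 17.0%.

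Whether a site moved relative to the other sites of its library was asked with limma on normal scores of width rank, over the 3445 sites called in all 8 libraries. In all, 4 of them (0.116%) passed an adjusted p of 0.05, each ranked lower in CV+HFM, and 398 had an unadjusted p below 0.05. None of the 10 member sites passed, and 1 had an unadjusted p below 0.05. That was the upstream site of Cgn, which ranked at 11, 4.86, 17.9 and 15.2 percent among the 3445 sites in GF+HFM and at 18.0, 27, 37.6 and 59.2 percent in CV+HFM. Every CV+HFM value was above every GF+HFM value, though the closest were 18.0 and 17.9. Within the whole lists the groups overlapped at this site. In limma the difference in normal score was 0.80 (SE 0.38, adjusted p = 0.425). The differences of the other 9 ran from -0.45 at the intron 1 site of Cldn15 to 0.85 at the Cldn4 site, with adjusted p from 0.465 to 0.941. The SE of the 10 differences ran from 0.37 to 0.51, and differences as large as 0.85 did not pass.

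Other junction genes were counted in the same way. Of 17 further claudin genes, 8 had no site, the median was 1 site, and 1 gene (5.88%) had a site within 1 kb of its start. Cldn14 had the most, with 9. Among 21 further tight junction genes, such as Tjp3 and the MARVEL domain genes, 18 had a site and the median was 6. The most sites were at Magi1 with 23, Pard3 with 21 and Prkcz with 12, which span long windows, and the median density was 0.405 sites per 10 kb, against 1.2 for the 9 genes described here. All 14 genes of adherens junctions and desmosomes, the contacts below the tight junction, had a site, with a median of 7, and 12 of them (85.7%) had one within 1 kb of the start. A site called in all 8 libraries was found at 3 of the further claudins (17.6%), at 9 of the further tight junction genes (42.9%) and at 9 of the adherens junction and desmosome genes (64.3%), against 6 of the 9 genes described here (66.7%). Counted by site and leaving out the site of Cldn13, which is that of the Cldn4 window, sites called in all 8 libraries made up 8.70% of the 23 sites of the further claudins, 7.86% of the 140 sites of the further tight junction genes and 8.82% of the 102 sites of the adherens junction and desmosome genes. Calls in more GF+HFM libraries made up 82.6%, 89.3% and 89.2% of these sites, in the same order. Like the member sites, those of the adherens junction and desmosome genes had a higher share called than all sites in each of the 8 libraries. For the further claudins and the further tight junction genes this did not hold in every library.

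**Figure D4:**
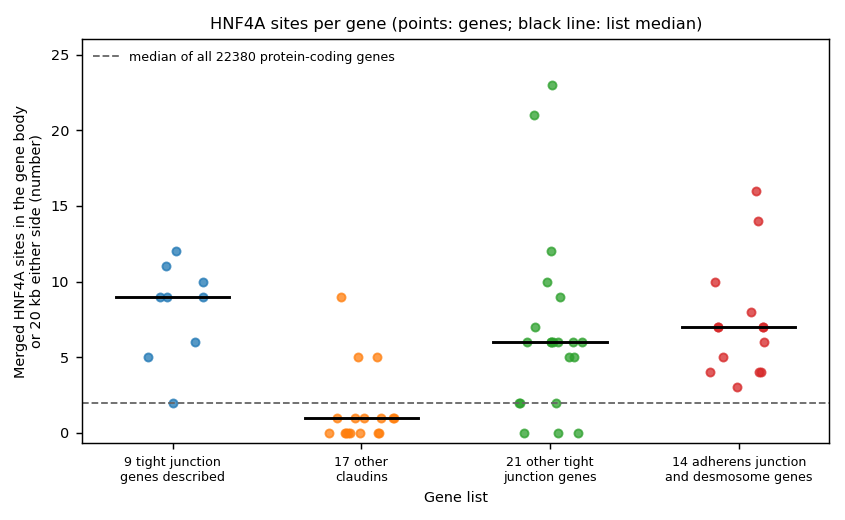
Number of merged HNF4A sites in the gene body or within 20 kb of either end (vertical axis) for each gene (points, spread sideways at random) of 4 lists, with the list median as a black line and the median of all protein-coding genes dashed. The 9 genes described here have a median of 9, the 17 other claudins of 1, and Magi1 is the highest point at 23.

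Around their midpoints, the member sites held close matches to the motifs less often than all sites did. In the 200 bp around the midpoint of each site, the HNF4 motif CAAAGTCCA was present without mismatch at 1 of the 72 member sites (1.39%) and at 4.89% of all sites. With at most 1 mismatch it was found at 14 member sites (19.4%) and 29.0% of all sites, and a DR1 with at most 2 mismatches at 5 (6.94%) and 12.9%. Either motif, whose matches can overlap each other, was found at 17 member sites (23.6%) and 38.6% of all sites. The mean GC content was 51.0% against 49.5%. Among the 43 member sites called in 4 GF+HFM libraries, 12 held either motif (27.9%), against 42.3% of all such sites. Among the 10 member sites called in all 8 libraries, 4 held either motif (40.0%), against 45.9% of all such sites. These matches say only which letters lie in the windows, and windows at the midpoint of a wide site can miss the bound position, since the lists give no summit. The member sites were also longer, with a median of 488 bp against 437 bp over all sites. Further matches lay outside the windows, for example to the HNF4 motif in the site shared by Cldn3 and Cldn4. Whole sites were not compared with all sites in this respect.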

How the data were processed

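The authors mapped HNF4A ChIP-seq reads of each mouse to mm9 with Bowtie2 and called peaks with MACS2 2.1.1.20160309, with a bandwidth of 300 bp and input DNA as control, for which the labels list 1 library per condition. The deposited lists, 1 per mouse, hold chromosome, start, end and name, and no count, score or p-value, so depth and enrichment are unknown here.

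Lists were converted to positions counted from 1 and merged, and genes were taken from GENCODE M1 on NCBIM37, the same build. The 9 sequence names that this reference lacks carry no gene. All 9 genes were named, and values per library were given for sites within 1 kb of a start, called in all 8 libraries, called in 4 libraries and 0, or widest for their gene in GF+HFM. The members, the other gene lists and these rules were chosen with earlier results of these data known. The groups were set against each other by Fisher's exact test and exact permutation tests over 70 relabellings (scipy 1.17.1), and by limma 3.58.1 in R 4.3.3, tested on simulated data, with Benjamini-Hochberg adjustment over all sites fitted. Nothing in the labels ties a replicate to a shared cage or litter, and each list is 1 mouse. Reference sequence was read with pysam 0.24.0, and copies were sought with minimap2 2.31. Alternatives were minimum peak widths, lists of equal length, other rules for calls and gene windows, a replicate block and each library left out.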

Additional observations from a re-analysis of the deposited data

Results flagged for a closer look

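Values of single libraries stood apart in some groups of 4 by Dixon's gap criterion, which chance alone meets in about 1 group in 20. At the Ocln start site, GF+HFM replicate 1 had a widest peak of 917 bp, at percentile 97.7, while the other 3 GF+HFM libraries had 230 to 288 bp and percentiles of 17.1 to 27. At the F11r start site, CV+HFM replicate 4, the shortest list, stood at percentile 34.3 and the other 3 at 86.4 to 96.3. At the upstream site of Cldn7, the widest peak of GF+HFM replicate 2 measured 874 bp and those of the other 3 measured 1317 to 1394 bp. At the wide intron 1 site of Cgn, the peak of GF+HFM replicate 4 measured 1545 bp against 907 to 1000 bp in the others, and GF+HFM replicate 3 stood at percentile 95.7 against 98.4 to 98.9. The remaining values are numbers of sites called per gene, where 3 tied counts and 1 other meet the criterion by construction, so the rate above does not hold for them. GF+HFM replicate 3 called 2 sites at Cldn2 and 9 at Cldn3, against 1 and 8 in the other 3, and GF+HFM replicate 2 called 6 sites at Cldn15 against 8.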

How the results depend on the processing

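The number of member sites called in every GF+HFM and no CV+HFM library, 1, was 0 with lists of equal length, 5 when at least 50% of a site had to be covered, and 1 to 9 with a library left out, the count being 9 if CV+HFM replicate 1 was omitted, 3 if GF+HFM replicate 2 was and 2 if GF+HFM replicate 3 was. Keeping the widest peaks to equal length changes both the length of a list and the widths in it, and makes the numbers of calls per library similar by construction. The Ocln start site, 4 calls against 0, came down to 1 call with peaks of at least 300 bp, with equal length and with 50% covered. Sites called in a larger share of GF+HFM libraries, 57, fell to 8 with lists of equal length and were 49 to 60 with a library left out. Sites covered further in every GF+HFM library, 18, numbered 1 with lists of equal length and 18 to 38 with a library left out. Within 10 kb either side Cldn3 had 5 sites and F11r 7. With each site given to its nearest gene, Cldn2 had 2, Cldn15 2, Cldn3 8, Cldn4 2 and Cldn7 3. By the same rule Ocln had 8, F11r 6, Tjp1 14 and Cgn 10. The 72 sites became 33 within gene bodies only, 55 by nearest gene and 68 to 72 with a library left out. Leaving out the 5 duplicated Cgn sites, an alternative chosen after seeing the data, moved none of these counts by over 1.5 times, while the sites of Cgn itself went from 12 to 7.

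In the limma test of width rank, 4 sites passed, and 0 to 21 with a library left out, the count being 14 if GF+HFM replicate 2 was omitted, 21 for CV+HFM replicate 1, 5 for CV+HFM replicate 4 and 0 in the other 5 cases. No member site passed under any of these. With the replicate number as a block 4 sites passed, and with summed peak length 4. Same-numbered libraries of the 2 groups did not pair, with correlations of their deviations of -0.0776 to 0.138, and not every library correlated best with its own number. Read depth is unknown, and peaks below each list's own minimum width could not be seen.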
